A study of Homo sapiens with 9 samples.

Results

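The 9 genes described here encode enzymes that carry carbon from acetyl-CoA units through mevalonate to lanosterol, the first sterol of cholesterol synthesis. They were picked by gene symbol and by their known place in the pathway, from 16199 genes with an entry in at least one library. The choice was made with earlier results of these data known. All 9 had an entry in every library and were tested. In pathway order they are HMGCS1, MVK, PMVK, MVD, IDI1, FDPS, FDFT1, SQLE and LSS. They do not cover every enzyme of this stretch. The cells were HaCaT, an immortalized human keratinocyte line with the genotype given as WT, grown past confluence and then kept in serum-free medium in all 3 groups. One group received nothing else, one received bleogen pB1 (1 µM, 24 h), a plant-derived miniprotein that activates the EGF receptor, and one received EGF, the natural ligand of that receptor (epidermal growth factor), at 10 nM for the same time. Each group had 3 libraries, called replicates 1 to 3. Nothing in the labels says whether these came from separate cultures, so the p-values measure the spread between these libraries, which may be technical.

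HMGCS1 joins acetyl-CoA and acetoacetyl-CoA, and the product is reduced to mevalonate, which MVK, PMVK and MVD phosphorylate and decarboxylate to the isoprenoid unit isopentenyl diphosphate. IDI1 isomerizes that unit and FDPS condenses units to farnesyl diphosphate, from which FDFT1 makes squalene, SQLE makes its epoxide and LSS closes the rings of lanosterol. SREBP transcription factors switch these genes on when sterols are scarce, and keratinocytes make much of their own cholesterol, a main lipid of the skin barrier.

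Stretches of promoter are shown for the 3 members with the steepest falls under bleogen pB1 (HMGCS1, MVD and LSS), for MVK, which holds a match to the sterol element, and for PMVK, which did not pass the test in any comparison. They were taken from the RefSeq promoter table on GRCh38.p14, in which 7 of the 9 members had an entry (FDFT1 and SQLE did not). Annotated exons were left out. Each is written 5′ to 3′ on the minus strand except MVK (plus strand). Capitals mark 4 kinds of motif searched on both strands. These were TCACNCCA (like the sterol regulatory element bound by SREBP), ATTGG (the inverted CCAAT box bound by NF-Y), GGGCGG (the GC box bound by Sp1 factors) and CACGTG (the E-box). The stretches of HMGCS1, MVD, LSS and PMVK lie directly upstream of the annotated gene. That of MVK lies inside the annotated gene span in no annotated exon, beside the start of MMAB on the opposite strand.
HMGCS1 (chr5:43313513-43313662): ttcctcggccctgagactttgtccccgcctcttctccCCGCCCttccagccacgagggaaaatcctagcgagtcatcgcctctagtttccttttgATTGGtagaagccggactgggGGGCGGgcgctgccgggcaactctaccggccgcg
MVD (chr16:88663162-88663297): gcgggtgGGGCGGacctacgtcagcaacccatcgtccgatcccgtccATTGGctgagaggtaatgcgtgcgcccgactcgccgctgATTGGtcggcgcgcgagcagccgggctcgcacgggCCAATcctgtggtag
LSS (chr21:46228825-46229024): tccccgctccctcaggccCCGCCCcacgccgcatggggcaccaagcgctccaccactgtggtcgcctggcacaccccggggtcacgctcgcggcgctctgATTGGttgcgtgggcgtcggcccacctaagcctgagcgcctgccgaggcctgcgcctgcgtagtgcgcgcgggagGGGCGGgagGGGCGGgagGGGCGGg
MVK (chr12:109573581-109573792): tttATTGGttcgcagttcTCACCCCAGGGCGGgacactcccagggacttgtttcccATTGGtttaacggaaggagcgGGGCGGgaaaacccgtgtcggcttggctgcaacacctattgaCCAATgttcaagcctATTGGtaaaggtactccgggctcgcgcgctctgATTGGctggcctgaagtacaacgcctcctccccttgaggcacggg
PMVK (chr1:154936720-154936969): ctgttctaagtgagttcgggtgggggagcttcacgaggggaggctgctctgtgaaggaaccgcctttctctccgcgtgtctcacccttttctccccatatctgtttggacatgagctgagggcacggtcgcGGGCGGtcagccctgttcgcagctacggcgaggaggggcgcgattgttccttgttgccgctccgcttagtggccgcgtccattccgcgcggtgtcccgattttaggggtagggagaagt

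In the 250 bases upstream of the start, the inverted CCAAT box was found in 7 of 10 member windows (some genes have more than 1 start), against 32% of the 35116 windows of all genes. Those 7 windows belong to 6 genes, PMVK being the one without it. The printed stretch of MVD holds 3 of these boxes, that of MVK 5, and those of HMGCS1 and LSS 1 each. The GC box was found in 10 of 10 member windows and in 42.6% of all windows, with 4 in the printed stretch of LSS and 1 in that of PMVK. TCACNCCA was found in 1 of 10 member windows, that of MVK, and in 3.2% of all windows, and in that gene it runs straight into a GC box. No member window held CACGTG, which 6.34% of all windows did. Matches of different motifs were counted separately, and a match describes letters, not binding.

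The expected counts, which are estimates of reads per gene, summed to 20288417 to 21320994 per library, and 12394 genes passed the count filter. A count of 3, taken as the floor, was 0.141 to 0.148 CPM (counts divided by library size, adjusted with TMM factors), far below every member, and this covers counting error only. The keratinocyte markers KRT5, KRT14, TP63, DSP, DSG3, ITGB4 and SFN were all at or above 1 FPKM (fragments scaled for gene length and depth), with a summed level of 5538 to 6115 in untreated, 5536 to 6449 in bleogen pB1-treated and 4839 to 4987 in EGF-treated libraries. Within that list KRT5 and DSP fell under EGF and KRT14, TP63, ITGB4 and SFN rose (edgeR). Under bleogen pB1 KRT14 rose (log2 fold change 0.48, adjusted p = 0.0017, edgeR) and the others did not pass. None of the 7 fibroblast, 4 melanocyte and 4 endothelial markers reached 1 FPKM in a group. At that low level the endothelial sum was 0.68 to 1.05 FPKM in untreated libraries, 0.17 to 0.30 with bleogen pB1 and 0.04 to 0.09 with EGF. The fibroblast sum was 1.42 to 1.80, 1.14 to 1.85 and 0.23 to 0.34 FPKM in the same order. Of 5 leukocyte markers, CD68, a lysosomal protein, alone did so, and the summed level of that list was 6.68 to 7.08, 5.94 to 6.63 and 10.67 to 11.48 FPKM in the untreated, bleogen pB1 and EGF groups. The part of these markers in the results was not tested. The EGF libraries were spread for several members, with replicate 1 lowest and replicate 2 highest, as given below with the values.

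Under bleogen pB1 the pathway was lower along nearly its whole length. Of the 9 enzyme genes, 7 fell at an adjusted p of at most 0.05 (edgeR), where 2.55% of all genes tested did so. By edgeR 0 rose, also at an unadjusted p under 0.05, where 8 were lower, and DESeq2 gave 8 lower and 0 higher. The share of all genes at an unadjusted p under 0.05 was not counted, here or for the lists below. Nor was it counted for DESeq2 or limma at the adjusted p alone, so those counts have no share to be read against. HMGCS1, MVD, IDI1 and LSS fell far enough to be differentially expressed genes (DEGs, with an absolute log2 fold change of at least 0.5 besides), a call that 1.26% of genes met in this direction. For 8 of 9 members all bleogen pB1 libraries lay under all untreated ones, against 14.7% of genes. The median log2 fold change of the 9 was −0.44, and that of all genes −0.001. With 3 libraries against 3, an exact permutation test of a single gene cannot give a p under 0.1, and 0.1 was its value for each of the 8. In bulk RNA, fewer cells with a transcript and less of it per cell cannot be told apart.

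Under EGF few of the same steps were called, and in both directions. MVK and LSS fell and FDPS and SQLE rose at an adjusted p of at most 0.05 (edgeR), so that 2 of 9 were lower (33.6% of all genes) and 2 of 9 higher (32.4%), shares no larger than those of all genes. FDPS was the only DEG among them, in a direction in which 15.1% of genes were DEGs. Groups did not overlap for 2 lower members (35.9% of genes) and 3 higher members (34.5%), the added one being FDFT1. The median log2 fold change of the members was 0.08 and that of all genes −0.01. The bleogen pB1 and EGF comparisons share their untreated libraries and are therefore given side by side.

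**Figure D1:**
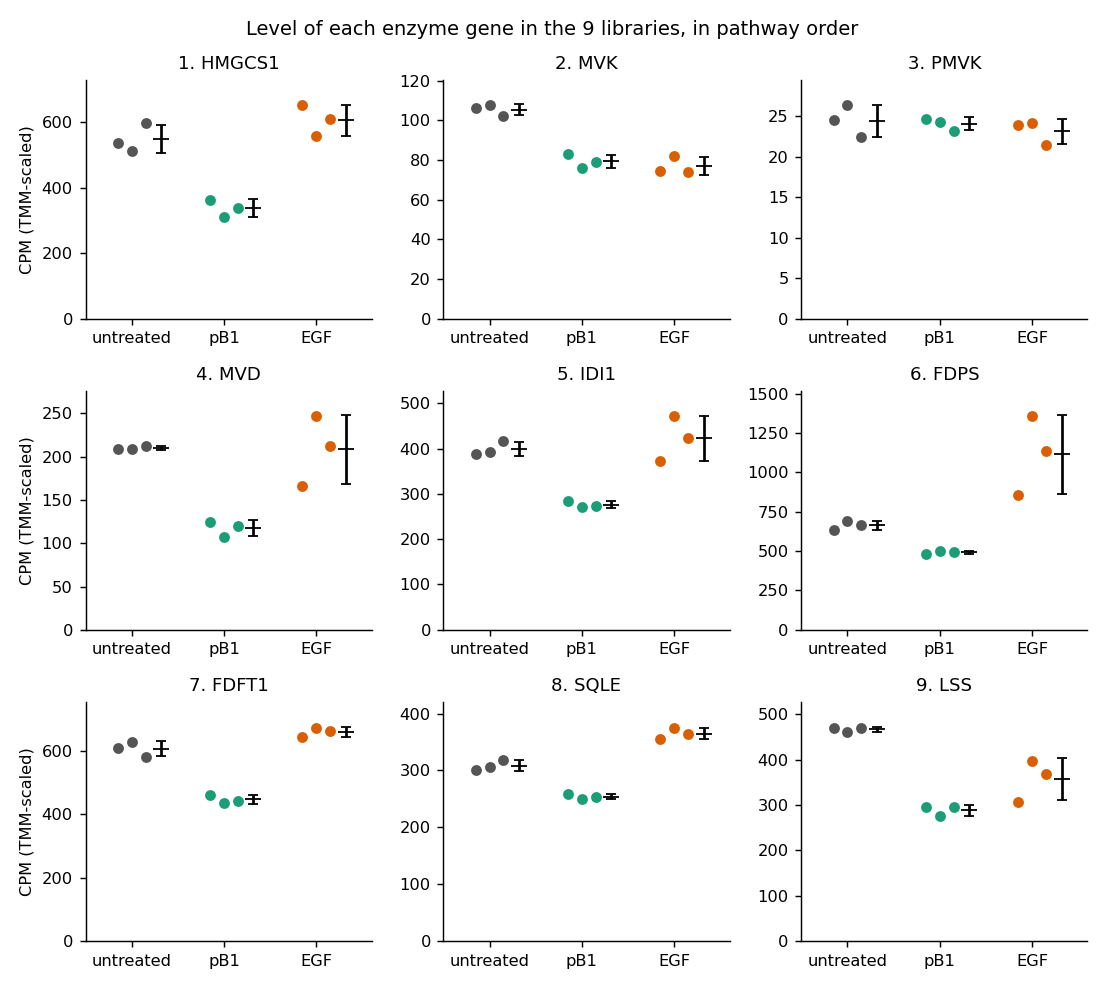
Level of each enzyme gene in CPM (y axis, from 0) in the 3 untreated, 3 bleogen pB1-treated and 3 EGF-treated libraries. Points are replicates 1 to 3 from left to right, and the bars give mean ± SD (n = 3). The bleogen pB1 points lie under the untreated ones in every panel but PMVK, and the EGF points of MVD, IDI1, FDPS and LSS spread widely, with replicate 1 lowest.

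HMGCS1 (chromosome 5, 43287470 to 43313512, minus strand, GRCh38) encodes the cytosolic synthase at the head of the pathway. It had 537, 512 and 596 CPM in untreated replicates 1 to 3, 364, 309.97 and 339 CPM with bleogen pB1 and 652, 557 and 611 CPM with EGF. The bleogen pB1 libraries were all under the untreated ones, while the EGF libraries overlapped them. It fell by 38.5% under bleogen pB1, a log2 fold change of −0.70 (SE 0.080, adjusted p = 0.00051, edgeR). Under EGF the log2 fold change was 0.15 (SE 0.080, adjusted p = 0.12). Leaving out untreated replicate 3 or EGF replicate 2 brought this to 0.21 in each case, with adjusted p = 0.05 and 0.034, leaving out EGF replicate 1 to 0.09 (adjusted p = 0.34), and upper-quartile factors to 0.04 (adjusted p = 0.67).

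MVK (chromosome 12, 109573255 to 109598125, plus strand) adds the first phosphate to mevalonate. Its levels were 106, 108 and 102 CPM in untreated, 83.0, 76.2 and 79.0 CPM in bleogen pB1-treated and 74.3, 82.1 and 74.0 CPM in EGF-treated libraries. Both treated groups lay wholly under the untreated one and overlapped each other. MVK fell by 24.6% under bleogen pB1 (log2 fold change −0.41, SE 0.061, adjusted p = 0.0026, edgeR). It fell by 27.1% under EGF (log2 fold change −0.46, SE 0.062, adjusted p = 3.1e-05). It was the only member other than LSS to fall in both comparisons.

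PMVK (chromosome 1, 154924740 to 154936719, minus strand) adds the second phosphate. It had 24.5, 26.3 and 22.4 CPM in untreated, 24.7, 24.3 and 23.2 CPM in bleogen pB1-treated and 23.9, 24.1 and 21.4 CPM in EGF-treated libraries, so that all 3 groups overlapped. The log2 fold change was −0.02 under bleogen pB1 (95% interval −0.21 to 0.16, adjusted p = 0.91, edgeR) and −0.08 under EGF (−0.26 to 0.11, adjusted p = 0.45). These intervals hold no change as large as the bleogen pB1 fall of any of the 7 members that passed.

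MVD (chromosome 16, 88651935 to 88663161, minus strand) decarboxylates the doubly phosphorylated mevalonate. Its untreated libraries were close together at 209, 209 and 213 CPM, the bleogen pB1 libraries were at 125, 107 and 120.4 CPM, and the EGF libraries ran from 166 in replicate 1 to 246 in replicate 2, with 212 in replicate 3. Bleogen pB1 moved all libraries under the untreated ones, and EGF spread them to both sides. MVD fell by 44.2% under bleogen pB1, the steepest of the 9 (log2 fold change −0.84, SE 0.11, adjusted p = 0.0011, edgeR). Under EGF it was −0.01 (95% interval −0.25 to 0.23, adjusted p = 0.93), and 0.13 without EGF replicate 1.

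IDI1 (chromosome 10, 1039152 to 1049119, minus strand), the isomerase that prepares the unit for chain building, had 388, 393 and 416 CPM in untreated libraries. It had 285, 271 and 273 CPM with bleogen pB1, all lower, and 373, 471 and 423 CPM with EGF, on both sides. It fell by 30.8% under bleogen pB1 (log2 fold change −0.53, SE 0.076, adjusted p = 0.0017, edgeR), just past the limit for a DEG. The EGF value was 0.08 (SE 0.075, adjusted p = 0.36), which was −0.02 with upper-quartile scaling factors and 0.16 (adjusted p = 0.037) without EGF replicate 1. Without EGF replicate 2 it was 0.0037 (adjusted p = 0.96). Counts of IDI1 and FDPS are less certain than the others, because the GENCODE annotation names 3 and 8 pseudogene copies of them and the sharing of reads between copies is not described in the sources used here.

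FDPS (chromosome 1, 155308748 to 155320666, plus strand) makes farnesyl diphosphate, where the route to sterols parts from those to prenylated proteins, dolichol and ubiquinone. It had 634, 692 and 665 CPM in untreated libraries and 482, 498 and 494 CPM with bleogen pB1. With EGF it had 853, 1355 and 1138 CPM. The 3 groups did not overlap, with bleogen pB1 lowest and EGF highest. Under EGF it rose by 68.1%, a log2 fold change of 0.75 (SE 0.12, adjusted p = 0.00013, edgeR), the largest change of the 9 in that comparison. Under bleogen pB1 the value was −0.43 (SE 0.12, adjusted p = 0.063), which missed the threshold. The estimate of spread behind that SE also took in the EGF libraries. Their SD was 252 CPM, against 8.29 with bleogen pB1 and 29.3 in untreated cells. The fall passed in 4 of 17 alternatives, among them DESeq2 (adjusted p = 0.0075) and edgeR on the 6 libraries compared (adjusted p = 0.0012).

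FDFT1 (chromosome 8, 11795573 to 11839395, plus strand) is squalene synthase, the first enzyme committed to sterols. It had 610.0, 628 and 581 CPM in untreated, 461, 435 and 443 CPM in bleogen pB1-treated and 643, 673 and 664 CPM in EGF-treated libraries. No group overlapped another. It fell by 26.3% under bleogen pB1 (log2 fold change −0.44, SE 0.055, adjusted p = 0.00077, edgeR). The EGF value of 0.12 (SE 0.055) had adjusted p = 0.062, passed with DESeq2 (adjusted p = 0.023) and with RLE factors (adjusted p = 0.047), and was 0.02 with upper-quartile factors (adjusted p = 0.79).

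SQLE (chromosome 8, 124998497 to 125022283, plus strand), the epoxidase that uses molecular oxygen and is held to be a slow step of the pathway, had 300.2, 306 and 319 CPM in untreated libraries. Its levels were 259, 249.8 and 253 CPM with bleogen pB1 and 355, 375 and 364 CPM with EGF, and the 3 groups were again apart. It fell by 17.6% under bleogen pB1 (log2 fold change −0.28, SE 0.052, adjusted p = 0.010, edgeR), the smallest of the falls that passed. That call was lost without untreated replicate 3 (adjusted p = 0.053) and without bleogen pB1 replicate 3 (adjusted p = 0.07). Under EGF it rose by 18.4% (log2 fold change 0.24, SE 0.052, adjusted p = 0.0011).

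LSS (chromosome 21, 46188141 to 46228824, minus strand) folds the epoxide into lanosterol. The untreated libraries had 469, 460.0 and 471 CPM, the bleogen pB1 libraries 296, 275 and 295 CPM and the EGF libraries 307, 396 and 368 CPM. All treated libraries were under all untreated ones, and EGF replicate 1 was near the bleogen pB1 levels. LSS fell by 38.1% under bleogen pB1 (log2 fold change −0.69, SE 0.080, adjusted p = 0.00051, edgeR). It fell by 23.4% under EGF (log2 fold change −0.39, SE 0.080, adjusted p = 0.00089). A gene on the opposite strand overlaps 6 of the 9 members (all but PMVK, MVD and SQLE), and whether the counting used the strand is not given in the sources used here.

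**Figure D2:**
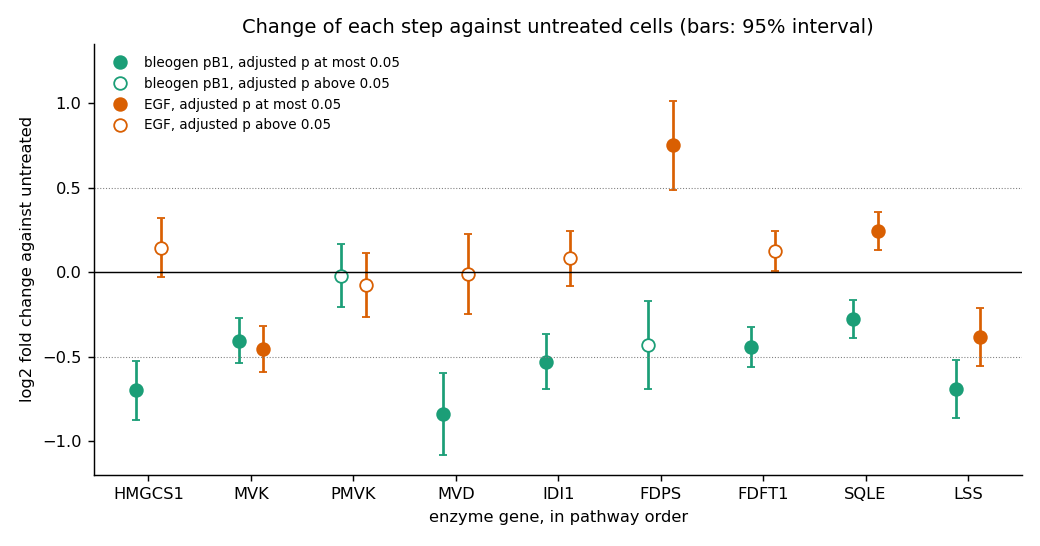
Log2 fold change against untreated cells (y axis) for the 9 enzyme genes in pathway order (x axis), bleogen pB1 in green and EGF in orange. Bars are 95% intervals, filled points have an adjusted p of at most 0.05 (edgeR), and dotted lines mark the DEG limit of 0.5. Bleogen pB1 values run from −0.84 (MVD) to −0.02 (PMVK), and EGF values from −0.46 (MVK) to 0.75 (FDPS).

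Read library by library, the median log2 distance of the members from their untreated means was −0.46, −0.48 and −0.45 in the 3 bleogen pB1 libraries. In the untreated libraries the same median was −0.01, −0.01 and 0.01. In the EGF libraries it was −0.02, 0.15 and 0.08, so that replicate 1 was the lowest and replicate 2 the highest. This order of the EGF libraries held for 6 of the 9 members (MVD, IDI1, FDPS, FDFT1, SQLE and LSS), and HMGCS1 had the opposite extremes, with replicate 1 highest at 0.25 and replicate 2 lowest at 0.02 from the untreated mean. Although their medians were close, the bleogen pB1 libraries were ordered too. HMGCS1 was at −0.59, −0.82 and −0.69 in replicates 1 to 3 and MVD at −0.75, −0.98 and −0.80. For MVK, IDI1, FDFT1, SQLE and LSS replicate 1 likewise fell least and replicate 2 most, while PMVK and FDPS had other orders. What lay behind these orders of the EGF and bleogen pB1 libraries was not tested.

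Compared directly, the EGF-treated cells had more transcript than the bleogen pB1-treated cells for 7 of 9 members at an adjusted p of at most 0.05 (edgeR), and 28.5% of all genes were higher in this sense. Of these 7, 6 were DEGs (10.8% of genes), and the same count of 7 had no overlap between groups (30.7% of genes). The median log2 difference of EGF minus bleogen pB1 was 0.57 for the members and −0.01 for all genes. FDPS differed most, by 1.18 (SE 0.12, adjusted p = 4.9e-06). HMGCS1 differed by 0.85 (SE 0.080, adjusted p = 2.5e-06) and MVD by 0.83 (SE 0.11, adjusted p = 4.5e-05). IDI1, FDFT1 and SQLE lay between 0.52 and 0.61, and LSS at 0.31 (SE 0.080, adjusted p = 0.0054) was the smallest that passed. MVK did not pass, with a difference of −0.05 (95% interval −0.18 to 0.09, adjusted p = 0.53), nor did PMVK at −0.06 (95% interval −0.24 to 0.13, adjusted p = 0.60). The interval of MVK excludes a difference as large as that of any member that passed.

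On the FPKM scale, which divides by gene length and allows genes to be compared, the steps were expressed at very different levels. In untreated cells FDPS led with 512.5 ± 20.5 FPKM (SD, n = 3), followed by FDFT1 at 289 ± 9.50 and IDI1 at 138 ± 5.89. MVD had 118 ± 2.11 FPKM and LSS 113 ± 1.75, after which SQLE at 107 ± 3.76 and HMGCS1 at 103 ± 8.82 could not be ordered, since LSS overlapped SQLE and SQLE overlapped HMGCS1. The kinases closed the order, MVK with 53.1 ± 1.07 and PMVK with 20.1 ± 1.48 FPKM. The highest step was thus 25.6 times the lowest, a span that was 19.3 with bleogen pB1 and 45.7 with EGF.

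FDPS, FDFT1 and IDI1 led and MVK and PMVK closed the FPKM order in all 3 groups, while the middle of the order shifted. With bleogen pB1, SQLE at 89.0 ± 1.33 FPKM stood above LSS (70.7 ± 2.69), MVD (66.7 ± 5.15) and HMGCS1 (64.3 ± 4.90), and those 3 overlapped as neighbours. With EGF, IDI1 (139 ± 16.5), SQLE (121 ± 3.65), MVD (111 ± 21.7) and HMGCS1 (109.5 ± 8.18) overlapped as neighbours, above LSS at 82.5 ± 10.9 FPKM. LSS therefore went from above SQLE in the order of means in untreated cells to below it in both treated groups.

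The summed FPKM of the 9 genes was 1452 ± 24.2 (SD, n = 3) in untreated cells and 1050 ± 14.4 with bleogen pB1, a difference of −27.7%. With EGF it was 1493, 1972 and 1767 in the 3 libraries, with a mean 20.1% above the untreated one. The bleogen pB1 sums lay under and the EGF sums above every untreated library. Without FDPS, the sum of the other 8 was 939.8 ± 9.89 in untreated cells, 664 ± 22.5 with bleogen pB1 and 919 ± 53.8 with EGF. The higher EGF sum thus rested on FDPS, a gene with less certain counts. The TMM factors of the CPM were not applied to the FPKM, which ran lower under EGF. The member median under EGF was 0.012 with limma on log2(FPKM + 1), against 0.08 by edgeR. A difference as small as that of 919 from 939.8 may therefore rest on the scaling. FDPS made up 35.3% ± 0.91 of the sum in untreated cells, 36.8% ± 1.31 with bleogen pB1 and 46.9% ± 4.34 with EGF, and its EGF shares of 42.2%, 50.8% and 47.6% were all above the others. PMVK made up 1.38%, 1.91% and 1.05% of the sum on average.

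**Figure D3:**
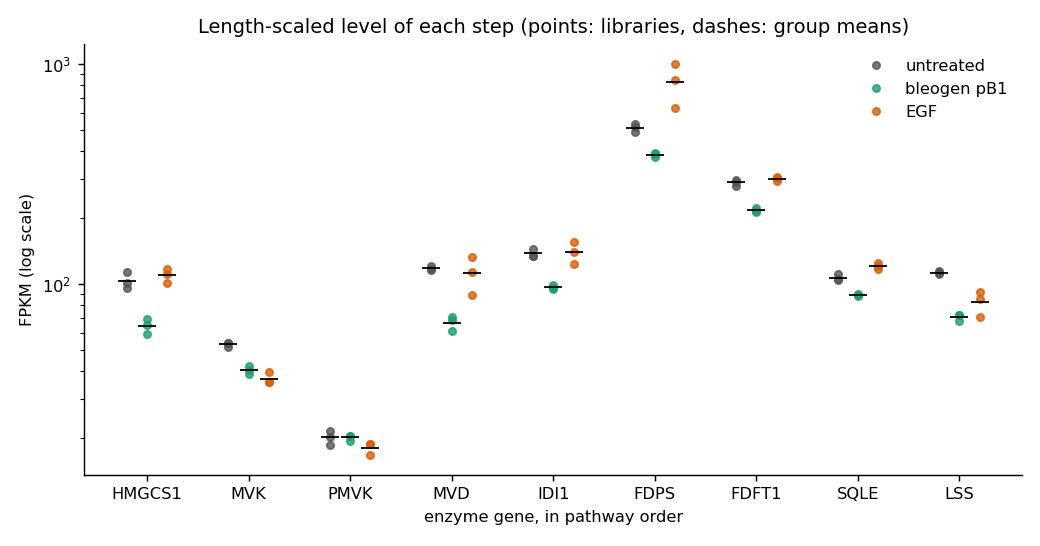
FPKM of the 9 enzyme genes on a log scale (y axis) in pathway order (x axis), with 1 point per library and dashes for group means. FDPS is highest and PMVK lowest in each group, and LSS lies lower in both treated groups than in untreated cells (113, 70.7 and 82.5 FPKM in untreated, bleogen pB1 and EGF).

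The unevenness of the change along the pathway was read from the log2 ratio of CPM of each enzyme to the one before it, which no scaling factor alters. The ratios are given as a description, with no share over other gene pairs to read them against. Under bleogen pB1 the ratio of MVD to PMVK dropped by 0.83, from 3.09, 2.99 and 3.25 in untreated to 2.34, 2.14 and 2.38 in bleogen pB1-treated libraries. That of LSS to SQLE dropped by 0.42, from 0.64, 0.59 and 0.56 to 0.19, 0.14 and 0.22. The ratios of MVK to HMGCS1, PMVK to MVK, IDI1 to MVD and SQLE to FDFT1 were higher by 0.29, 0.39, 0.31 and 0.16, and in these 6 ratios the groups did not overlap. From IDI1 through FDPS to FDFT1 the ratios overlapped, so that these 3 enzymes kept their proportions within the spread of the libraries.

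Under EGF the ratio of FDPS to IDI1 was higher by 0.65 (1.19, 1.53 and 1.43 against 0.71, 0.82 and 0.68) and that of FDFT1 to FDPS was lower by 0.60, which is the FDPS rise seen from both sides. MVK to HMGCS1 was lower by 0.60, PMVK to MVK higher by 0.38 and LSS to SQLE lower by 0.64. In the last of these the EGF libraries had −0.21, 0.08 and 0.02 against 0.56 to 0.64 in untreated cells, and the bleogen pB1 libraries given above lay between. The average transcript length that the files give for each member changed little, by −0.44% (FDPS under EGF) to 0.40% (PMVK under EGF) against untreated cells.

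The genes that feed the pathway fell with it under bleogen pB1. All 4 genes of acetyl-CoA supply fell (edgeR, adjusted p at most 0.05, where 2.55% of all genes fell), also with DESeq2, while limma on log2(FPKM + 1) gave 2 of 4. They had a median log2 fold change of −0.66, against −0.001 over all genes. ACSS2, which makes acetyl-CoA from acetate, went from 188, 184 and 197 CPM in untreated to 91.3, 58.5 and 73.9 CPM with bleogen pB1 (log2 fold change −1.35, SE 0.12, adjusted p = 0.00017), a steeper fall than that of any of the 9 enzymes. ACLY, which makes it from citrate, fell by 0.99 on the log2 scale (adjusted p = 0.00084), and SLC25A1, the carrier that exports citrate from mitochondria, by 0.33 (adjusted p = 0.038). Under EGF 2 of the 4 fell and 1 rose, counts to be read against 33.6% and 32.4% of all genes. ACSS2 was then at 136, 162 and 144 CPM, a log2 fold change of −0.36 (adjusted p = 0.016), SLC25A1 at −0.27 (adjusted p = 0.0075) and ACLY at 0.19 (adjusted p = 0.20).

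Beyond lanosterol, 8 of the 10 enzymes that complete cholesterol fell under bleogen pB1 and 0 rose (edgeR), where 2.55% of all genes fell. Their median was −0.37, against −0.001 over all genes. At an unadjusted p under 0.05 the counts were 9 and 0, with no share of all genes to read them against. With DESeq2 they were 9 and 0, and with limma 6 and 0. MSMO1, which removes methyl groups from the ring, fell by 0.76 on the log2 scale (adjusted p = 0.00020), from 195 to 203 CPM in untreated to 113 to 120.4 CPM in treated libraries. CYP51A1, the lanosterol demethylase that takes over the product of LSS, fell by 0.55 (adjusted p = 0.0026) and DHCR7, which makes cholesterol in the last step of one branch, by 0.45 (adjusted p = 0.0014). Under EGF 5 of the 10 rose (32.4% of all genes did) and 1 fell (33.6%), with a median of 0.16. MSMO1 rose by 0.23 (adjusted p = 0.011), CYP51A1 was at −0.03 (adjusted p = 0.77) and DHCR7 at −0.06 (adjusted p = 0.41). TM7SF2, a sterol reductase named here after its values were seen, fell in both, by 0.50 (adjusted p = 0.0499) and 1.16 (adjusted p = 8.4e-06).

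In the branch that takes farnesyl diphosphate to prenylated proteins, dolichol and ubiquinone, none of 11 genes passed under bleogen pB1 (edgeR 0, DESeq2 0, limma 0). By edgeR 11885 of all 12394 genes tested did not pass either. The median of the 11 was 0.09. At an unadjusted p under 0.05, 4 were higher and 0 lower, with no share of all genes to read these counts against. Under EGF 6 of the 11 rose and 0 fell (edgeR), against 32.4% and 33.6% of all genes, with a median of 0.21. At an unadjusted p under 0.05 the counts were 7 and 0, again with no share of all genes. With DESeq2 they were 6 and 0, and with limma 4 higher and 1 lower. Named after their values were seen, RABGGTB, a subunit of the enzyme that prenylates Rab proteins, rose under EGF by 1.00 (adjusted p = 7.4e-06), and PDSS1, which makes the ubiquinone side chain, by 0.75 (adjusted p = 0.00017).

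Of 7 genes of SREBP control, 2 fell under bleogen pB1 (2.55% of all genes did, edgeR) and 5 did not pass. The median was −0.06, against −0.001 over all genes. At an unadjusted p under 0.05, 3 were lower and 0 higher (edgeR), with no share of all genes to read these counts against. SREBF1, which encodes SREBP-1, had 942, 885 and 909.6 CPM in untreated and 528, 441 and 499 CPM in bleogen pB1-treated libraries, a log2 fold change of −0.90 (adjusted p = 0.00020, edgeR). INSIG1, which holds SREBPs back in the endoplasmic reticulum and is itself one of their targets, fell by 0.83 (adjusted p = 0.00015). SREBF2, named after its values were seen, encodes SREBP-2, the form tied most closely to cholesterol genes. Its log2 fold change was −0.20 (95% interval −0.35 to −0.05, adjusted p = 0.12, edgeR). All its bleogen pB1 libraries lay under all untreated ones, as for 14.7% of genes. Under EGF 4 of the 7 fell and 2 rose (edgeR), against 33.6% and 32.4% of all genes. SREBF1 fell by 0.76 (adjusted p = 7.8e-06), INSIG1 by 0.21 (adjusted p = 0.023) and SREBF2 by 0.24 (adjusted p = 0.0088). SREBF1 had 482, 610.1 and 529 CPM in EGF-treated libraries, which overlapped the bleogen pB1 ones. Its direct log2 difference of EGF minus bleogen pB1 was 0.14 (95% interval −0.04 to 0.33, adjusted p = 0.17, edgeR). That of SREBF2 was −0.04 (95% interval −0.20 to 0.11, adjusted p = 0.62, edgeR).

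**Figure D4:**
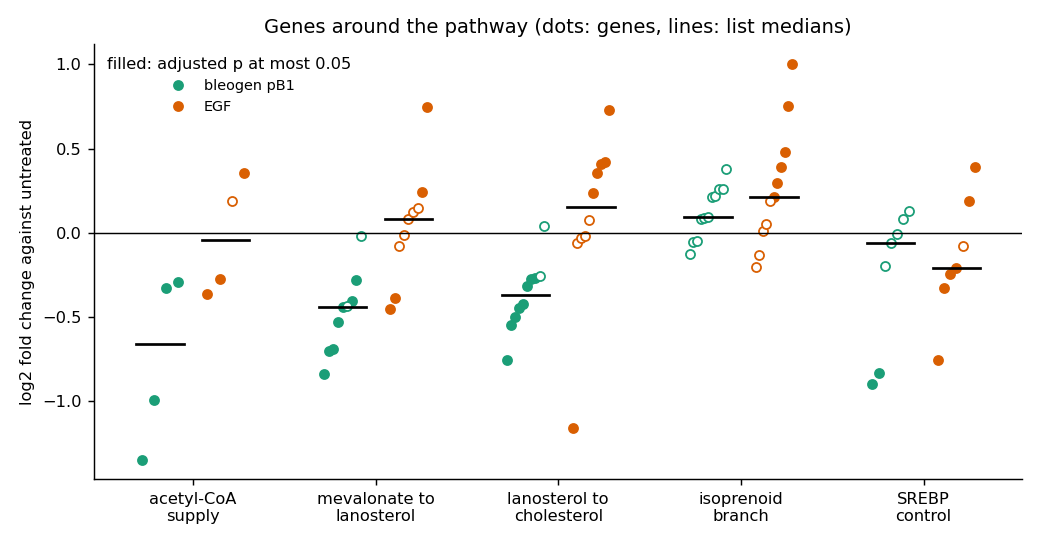
Log2 fold change against untreated cells (y axis) of single genes (points) in 5 lists of the pathway (x axis), bleogen pB1 in green and EGF in orange, filled where the adjusted p is at most 0.05 (edgeR). Lines are list medians, which under bleogen pB1 are −0.66, −0.44, −0.37, 0.09 and −0.06 from left to right.

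IDI2, an isozyme of IDI1, was low, at 2.66 ± 0.672 CPM (SD, n = 3) in untreated libraries, 2.97 ± 0.287 with bleogen pB1 and 4.32 ± 0.143 with EGF, the last lying above all others. It rose under EGF (log2 fold change 0.70, SE 0.19, adjusted p = 0.0059, edgeR) and was at 0.16 (adjusted p = 0.67) under bleogen pB1.

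Of the tested genes outside the 9, those whose log2 CPM over the 9 libraries ran close to the mean scaled profile of the members included DHCR7 (Pearson r = 0.992), PCYT2 (0.979), INSIG1 (0.973) and FASN (0.972). DHCR7 finishes cholesterol, FASN makes fatty acids and PCYT2 acts in phosphatidylethanolamine synthesis. The r describes 9 libraries in 3 groups that share a normalization and carries no test. The members themselves ran from 0.978 (MVD), 0.968 (IDI1) and 0.953 (FDFT1) down to 0.752 (FDPS), 0.489 (MVK) and 0.03 (PMVK), each being part of the mean it was compared with.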

How the data were processed

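RNA of 9 HaCaT libraries was sequenced, 3 untreated, 3 treated with bleogen pB1 and 3 with EGF, grouped by their deposited titles and treatments. Mapping was to GRCh38.p12, per the labels, at a sequencing service. The counting program is not given in the sources used here. Each deposited file lists expected counts, which are estimated counts per gene without depth scaling, and these summed to 20288417 to 21320994 per library. The FPKM deposited by the authors are these counts scaled for gene length and depth, and the files also give the average gene length. A gene without an entry in a library was taken as 0 there. The paper names a different RNA extraction kit from the one in the labels.

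Expected counts were rounded and tested with edgeR 4.0.16 (R 4.3.3), after filterByExpr by group left 12394 genes and TMM gave factors of 0.9635 to 1.024. The quasi-likelihood fit held the 9 libraries together, with 6 residual degrees of freedom and thus 1 estimate of the spread, and p-values were adjusted by Benjamini-Hochberg over all genes tested. A DEG met an adjusted p limit of 0.05 and an absolute log2 fold change of 0.5 or more. The paper used DESeq2, run here as an alternative. Standard errors are the absolute log2 fold change over the square root of F. Exact permutation tests were two-sided. Correlations used log2 CPM with a prior count of 2. The scripts were tested on simulated data. Tables were made with Python 3.11.15, pandas 2.3.3 and numpy 2.4.6. Gene coordinates are from GENCODE 44 on GRCh38, 1-based.

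The members and lists were chosen with earlier results of these data known. Named genes were all 9 members, from each other list the genes that passed in bleogen pB1 against untreated (at most 3 by smallest p), isozymes, and the 5 genes with the most similar profile. Of the genes that meet this rule, some are not reported here one by one. Others are said to have been named after their values were seen. Alternatives were DESeq2 1.42.0, edgeR on the 6 libraries compared, other scaling factors and count filters, limma 3.58.1 on log2(FPKM + 1) or log2(FPKM + 0.1), other fold change limits, glmTreat, the replicate number as a block and each library left out.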

Additional observations from a re-analysis of the deposited data

How the results depend on the processing

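Of 459 alternative values for single members, 440 kept their direction and side of the threshold, 9 newly passed, 2 lost the call (SQLE, given above) and 8 changed sign, none of them a call. These 8 were PMVK under bleogen pB1 with limma on log2(FPKM + 1) with and without the FPKM filter (0.0025 each), on log2(FPKM + 0.1) (0.0027), without untreated replicate 2 (0.037) and without bleogen pB1 replicate 3 (0.0032), PMVK in EGF against bleogen pB1 without EGF replicate 3 (0.0044), IDI1 under EGF with upper-quartile factors (−0.023) and MVD under EGF without EGF replicate 1 (0.13). With a library left out, these 3 values ran from −0.079 to 0.037 (PMVK, bleogen pB1), −0.077 to 0.0044 (PMVK, EGF against bleogen pB1) and −0.14 to 0.13 (MVD). The cause was not tested. Under bleogen pB1, 4 members were DEGs, 7 with the adjusted p alone, 0 at an absolute log2 fold change of at least 1, 0 with glmTreat and 3 to 4 with a library left out (3 without untreated replicate 3). Over all genes there were 183 DEGs (27 higher), 509 with the adjusted p alone, 31 at the limit of 1, 5 with glmTreat, and 102 to 436 with a library left out (102 without untreated replicate 1 or bleogen pB1 replicate 3, 109 without bleogen pB1 replicate 2, 436 without bleogen pB1 replicate 1). Under EGF, 1 member was a DEG, 2 with upper-quartile factors, no factors or any limma fit (MVK being added), 4 with the adjusted p alone, 0 at the limit of 1 and 1 to 1 with a library left out. Over all genes there were 4578, 8187 with the adjusted p alone, 1892 at the limit of 1, 2919 with glmTreat and 4405 to 4737 with a library left out. In EGF against bleogen pB1, 6 members were DEGs, 1 at the limit of 1, 3 with glmTreat and 6 to 6 with a library left out. Over all genes there were 3564, 7214 with the adjusted p alone, 1458 at the limit of 1, 2026 with glmTreat and 3106 to 4041 with a library left out. Upper-quartile factors shifted the median of all genes under EGF to −0.118 and moved the share of higher DEGs from 41.0% to 30.2%. In EGF against bleogen pB1 that share was 37.6%, 28.8% with upper-quartile factors and 29.0% with limma on log2(FPKM + 0.1). Whether same-numbered libraries belong together could not be told from these values. Their deviations correlated at −0.030 to 0.207, over 0.1 in 2 of 9 pairs, and 9 of 18 best matches had the same number. Different-numbered pairs ran from −0.253 to 0.163. The replicate block gave 186, 4560 and 3550 DEGs over all genes and 4, 1 and 6 among members in the 3 comparisons, and with this block FDPS passed under bleogen pB1 (adjusted p = 0.043).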
